A study of Mus musculus with 8 samples.

Results

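The 10 genes described here encode members of the interleukin-1 family and their receptors: the ligands Il1a, Il1b, Il33 and Il18, the receptor antagonist Il1rn, the receptor chains Il1r1, Il1rap, Il1rl1 and Il18rap, and the decoy receptor Il1r2. They were chosen by name and not by their values. Every array probe that the manufacturer placed on a RefSeq transcript of one of them was taken, which gave 13 probes for 10 of the 20145 genes with a probe. For each gene, the brightest probe with a signal well above background on 4 or more of the 8 arrays was used. A probe that met this rule is called retained. Retained probes were found for 9 of the 10 genes.

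Cardiac RNA came from the ventricles of male C57BL\6 mice 24 hours after surgery. In 4 MI mice the anterior interventricular artery had been permanently occluded, and 4 sham-operated mice had undergone the same operation but no coronary ligation. All 8 mice had therefore had surgery, and no unoperated mice were on these arrays. Each mouse gave 1 array of the Agilent SurePrint G3 Mouse 8x60K type, on which RNA labeled with Cy3 binds to short probes and the brightness of a probe is its signal. Arrays had 58.6% to 66.4% of their spots well above background, and correlations between arrays of the same group were between 0.990 and 0.995. The 10 cardiomyocyte markers were retained and did not pass the test, with a median difference of -0.08 on the log2 scale, and Myh6, the cardiac myosin heavy chain, had a mean of 18.76 in the MI group and 18.81 in the sham group.

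Interleukin-1 beta and interleukin-1 alpha bind the receptor Il1r1, which then recruits the accessory chain Il1rap and signals through Myd88 and NF-kB to induce cytokines, chemokines and adhesion molecules. The family carries its own brakes: Il1rn occupies Il1r1 without signaling, and Il1r2 binds the ligand but lacks a signaling domain. Il33 signals through Il1rl1 (also called ST2) together with Il1rap, and Il18 signals through Il18r1 together with Il18rap. Interleukin-1 beta and interleukin-18 are made as precursors that the inflammasome protease Casp1 cleaves. In the infarcted heart this family is known as an early part of the inflammatory response to dying muscle, and soluble ST2 is known as a marker of cardiac strain.

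The promoters of the 5 genes that rose are shown because these genes rose in the same hearts. The sequences are those of RefSeq on build GRCm38.p6, written 5′ to 3′ on the strand of the gene, from 250 bases before to 50 bases after the transcription start. For Il1rn, which has several starts in that table, the start with an NF-kB type match upstream is printed. Capitals mark matches, on either strand, to 4 motifs: the NF-kB type (GGG, any 2 bases, TT, any base, then CC), the AP-1 type (TGANTCA), the C/EBP type (TTNNGNAA) and the PU.1 type (GAGGAA), where N is any base.
Il1b, chr2:129371090-129371389, minus strand: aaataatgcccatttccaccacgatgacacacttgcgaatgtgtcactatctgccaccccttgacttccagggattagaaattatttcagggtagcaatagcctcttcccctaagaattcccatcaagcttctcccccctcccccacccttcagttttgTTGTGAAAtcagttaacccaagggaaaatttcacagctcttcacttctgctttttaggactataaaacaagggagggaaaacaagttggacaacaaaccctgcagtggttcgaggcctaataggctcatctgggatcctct
Il1rn, chr2:24345121-24345420, plus strand: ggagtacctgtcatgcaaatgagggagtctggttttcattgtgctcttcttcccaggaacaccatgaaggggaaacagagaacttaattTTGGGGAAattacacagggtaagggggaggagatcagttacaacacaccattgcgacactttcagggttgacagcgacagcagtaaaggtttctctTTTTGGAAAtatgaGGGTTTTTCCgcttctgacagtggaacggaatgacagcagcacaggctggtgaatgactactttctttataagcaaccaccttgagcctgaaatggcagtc
Il1r2, chr1:40085843-40086142, plus strand: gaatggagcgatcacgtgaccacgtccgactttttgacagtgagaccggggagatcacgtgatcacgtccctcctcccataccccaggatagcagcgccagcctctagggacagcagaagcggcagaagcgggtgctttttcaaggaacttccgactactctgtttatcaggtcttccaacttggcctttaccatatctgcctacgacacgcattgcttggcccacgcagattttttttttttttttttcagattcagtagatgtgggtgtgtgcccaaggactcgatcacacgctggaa
Il1rap, chr16:26581455-26581754, plus strand: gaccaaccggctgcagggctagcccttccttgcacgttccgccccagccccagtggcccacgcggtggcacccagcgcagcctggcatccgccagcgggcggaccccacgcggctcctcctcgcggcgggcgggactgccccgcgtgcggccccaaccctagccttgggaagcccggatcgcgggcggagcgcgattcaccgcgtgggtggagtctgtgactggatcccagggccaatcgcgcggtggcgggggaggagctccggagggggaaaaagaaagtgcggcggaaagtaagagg
Il18rap, chr1:40515112-40515411, plus strand: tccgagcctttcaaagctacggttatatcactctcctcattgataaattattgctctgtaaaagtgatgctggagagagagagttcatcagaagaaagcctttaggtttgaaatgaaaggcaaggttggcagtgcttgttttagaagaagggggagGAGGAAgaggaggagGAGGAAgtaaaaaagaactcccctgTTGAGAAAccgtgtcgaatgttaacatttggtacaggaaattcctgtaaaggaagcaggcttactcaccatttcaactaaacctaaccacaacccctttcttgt

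The NF-kB type letters began 51 bases before the start of Il1rn, and they were present in 4.79% of the 32851 promoters of the same length in the table. The printed window was picked for this match, so that the share gives no measure of how unusual the match is. C/EBP type letters began 91 bases before the start of Il1b, 54 bases before that of Il18rap, and 161, 65 and 64 bases before that of Il1rn, the last 2 of which overlap. These letters are common and were found in 40.7% of all promoters. PU.1 type letters, present in 28.3% of all promoters, began 94 and 79 bases before the start of Il18rap. The windows of Il1r2 and Il1rap held none of the 4 motifs. The window of another start of Il1rn, not printed, held no NF-kB, C/EBP or PU.1 type letters. AP-1 type letters began 141 bases before that start. Over the 15 promoters that the table holds for the 10 genes, 11 had C/EBP type letters, 4 had PU.1 type letters, 2 had NF-kB type letters and 2 had AP-1 type letters, which were found in 7.81% of all promoters. The windows of different starts of a gene can overlap, and both NF-kB type matches are 1 site of Il1rn seen in 2 overlapping windows, which also share their C/EBP type sites. These matches describe the sequence, and no binding was measured.

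Signals are given below as normalized log2 signals, the log2 of the scanner intensity after a scale and a small additive constant were applied to each array. Differences are MI minus sham on this log2 scale. Groups were compared with limma over all 34038 retained probes, with Benjamini-Hochberg adjustment, and calls required both a fold change above 2 and an adjusted p below 0.05. Over all retained probes, 1046 probes (3.07%) were called higher and 138 probes (0.405%) lower in MI mice, and the median difference was 0.12. Higher probes made up 88.3% of these calls, compared with 72.2% when each array was scaled to its 75th percentile and 67.5% after quantile normalization. Signals of different probes cannot be set against each other, because each probe binds with its own strength.

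Of the 10 genes, 5 rose in MI mice (Il1b, Il1rn, Il1r2, Il1rap and Il18rap), 0 fell, 4 did not pass the test (Il33, Il18, Il1r1 and Il1rl1), and Il1a was not well above background on any array. The rise was 9.60-fold for Il1r2, 9.34-fold for Il1b, at least 6.85-fold for Il18rap, 4.88-fold for Il1rn and 2.26-fold for Il1rap. Beside these 5 genes stands the 3.07% of all retained probes that were called higher. Of the 5, Il1rn, Il1rap and Il18rap were well above background on fewer than 4 sham arrays and so met the detection rule only with the help of the MI arrays. Among the 6 genes detected well above background on all 8 arrays, 2 were called (Il1b and Il1r2), and 2.75% of the 29805 probes of that kind were called higher. In whole ventricles, more cells that express a gene and more RNA of it per cell cannot be told apart.

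**Figure D1:**
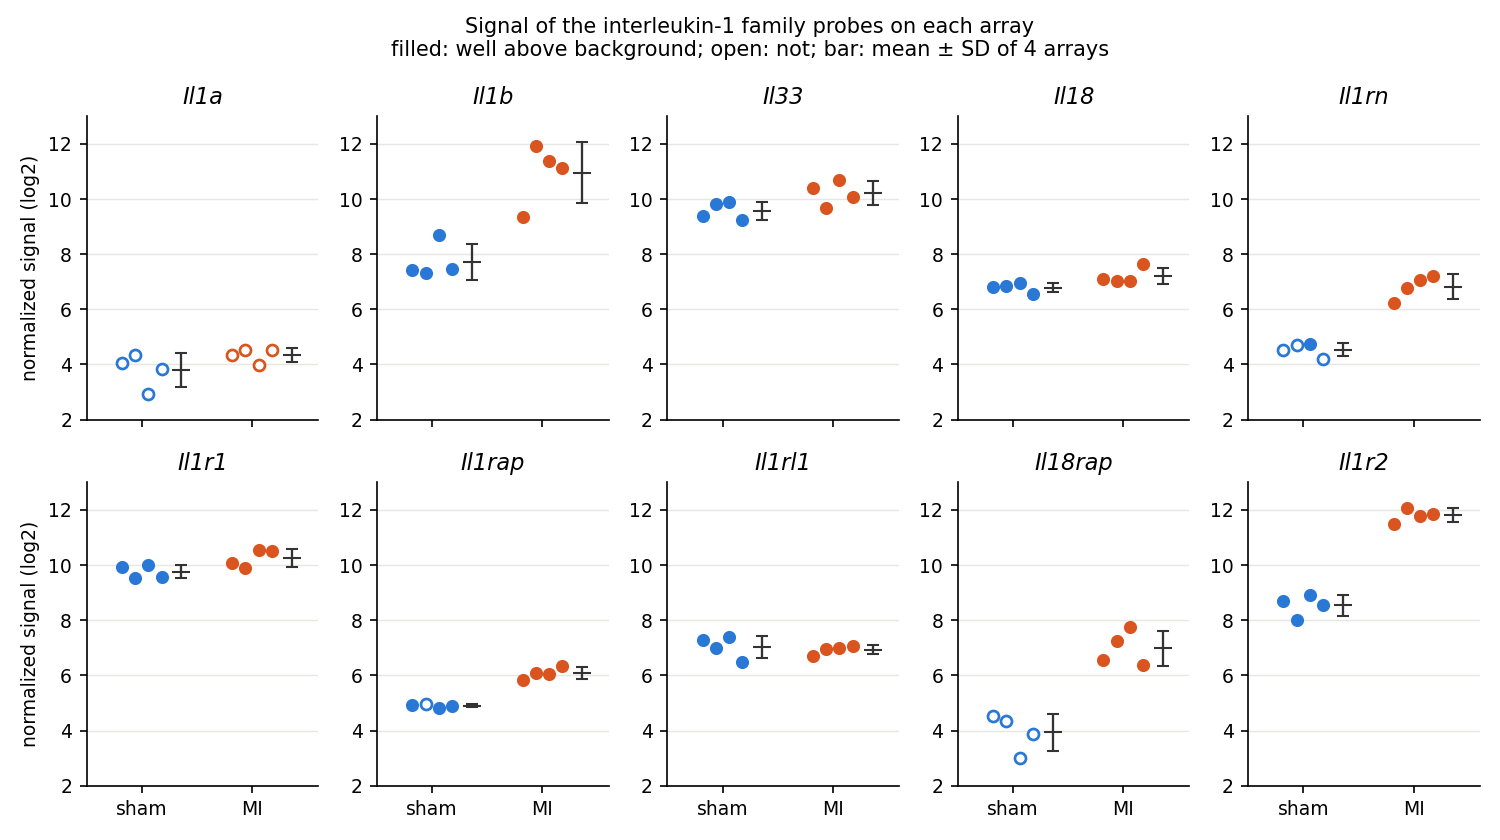
Normalized signal (log2, y axis) of the probe used for each of the 10 genes in 4 sham-operated (blue) and 4 MI mice (orange), 1 point per mouse in the order of the replicate numbers. Filled points were well above background and open points were not, and bars give the mean ± SD. For Il1b, Il1rn, Il1rap, Il18rap and Il1r2 every MI point lies above every sham point by more than 0.6, whereas all 8 points of Il1a are open.

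Among the ligands, Il1b, which encodes interleukin-1 beta, was at 7.44, 7.30, 8.70 and 7.46 in sham-operated mice 1 to 4 and at 9.36, 11.93, 11.37 and 11.14 in MI mice 1 to 4. The groups did not overlap, and the gap between the highest sham and the lowest MI mouse was 0.66. MI mouse 1 was the lowest of its group by a wide margin, and sham mouse 3 stood apart above the other sham-operated mice. Group means were 10.95 ± 1.11 for MI and 7.73 ± 0.66 for sham (SD, n = 4 each). The difference of 3.22 (SE 0.37) corresponds to a fold change of 9.34 (95% confidence interval 5.53 to 15.8, limma adjusted p = 6.8e-07). The Il1b probe is printed 10 times on the array, and the average over these spots spanned intensities of 140 to 311 in sham-operated mice and 622 to 4916 in MI mice.

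Il1a, which encodes interleukin-1 alpha, an alarmin held inside many cell types, was not well above background on any of the 8 arrays. Its single probe lay between 2.94 and 4.34 in sham-operated mice and between 3.98 and 4.52 in MI mice, so that these arrays give an upper limit on its signal and no fold change. Il1a lies next to Il1b on chromosome 2.

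Il33, a nuclear alarmin of stromal and endothelial cells, was at 9.38, 9.81, 9.90 and 9.23 in sham-operated mice and at 10.40, 9.67, 10.69 and 10.09 in MI mice. MI mice 1, 3 and 4 were above every sham-operated mouse, but MI mouse 2 was not, and the groups overlapped. The difference of 0.63 (SE 0.24), a fold change of 1.55 (95% confidence interval 1.11 to 2.17), did not pass the test (limma adjusted p = 0.106, exact two-sided permutation p = 0.0857).

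Il18, which encodes interleukin-18, an inducer of interferon gamma in lymphocytes, was at 6.82, 6.85, 6.94 and 6.55 in sham-operated mice and at 7.11, 7.04, 7.03 and 7.63 in MI mice. The groups did not overlap, with a gap of 0.09, and MI mouse 4 stood apart above the other MI mice. The difference of 0.41 (SE 0.21), a fold change of 1.33 (95% confidence interval 0.985 to 1.79), did not pass the test over all probes (limma adjusted p = 0.282). The exact two-sided permutation p of this single comparison was 0.0286, the smallest that 4 against 4 mice can give. Groups without overlap were seen for 6 of the 9 retained genes, the called genes and Il18, and for 11.2% of all retained probes.

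Il1rn, which encodes the interleukin-1 receptor antagonist, was at 4.54, 4.69, 4.73 and 4.20 in sham-operated mice and at 6.22, 6.79, 7.08 and 7.21 in MI mice. All 4 MI arrays but only 1 sham array, that of sham mouse 3, were well above background, and the gap between the groups was 1.49. Group means were 6.83 ± 0.44 for MI and 4.54 ± 0.24 for sham (SD, n = 4 each). The fold change was 4.88 (95% confidence interval 3.52 to 6.76, limma adjusted p = 8e-08). The signal was dim, with intensities of 56.1 to 156 in MI mice, and the fold change fell below 2 with a vsn fit made anew on the spike-in spots or with the normexp background correction, both of which hold back dim probes. Settings without an additive constant gave a larger difference than 2.29, between 3.04 and 3.24. The rise of Il1b exceeded that of Il1rn by 0.94 within arrays (SD 0.72), with 2 of 4 MI mice above every sham-operated mouse. This difference did not pass (exact two-sided permutation p = 0.143, 0.143 after adjustment over the 4 pairs compared), and it was 0.08 with scaling to the 75th percentile or to the spike-in signals and 0.14 after quantile normalization.

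Of the receptors, Il1r1, the signaling receptor of interleukin-1, was at 9.92, 9.53, 10.02 and 9.57 in sham-operated mice and at 10.09, 9.89, 10.53 and 10.51 in MI mice. MI mice 1, 3 and 4 lay above every sham-operated mouse and MI mouse 2 lay within their range. The difference of 0.49 (SE 0.22), a fold change of 1.41 (95% confidence interval 1.03 to 1.92), did not pass the test (limma adjusted p = 0.191, exact two-sided permutation p = 0.0857).

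Il1r2, the decoy receptor, was at 8.68, 8.0, 8.92 and 8.55 in sham-operated mice and at 11.48, 12.08, 11.79 and 11.87 in MI mice. The 4 MI mice lay close together and the gap between the groups, 2.56, was the widest among the 10 genes. Group means were 11.80 ± 0.25 for MI and 8.54 ± 0.39 for sham (SD, n = 4 each), a fold change of 9.60 (95% confidence interval 6.97 to 13.2, limma adjusted p = 1.2e-10). The probe was well above background on all 8 arrays, at intensities of 238 to 475 in sham-operated mice and 2746 to 5441 in MI mice.

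The decoy and the signaling receptor, which compete for the same ligand, were also compared within each array, where any scale factor of the array cancels. The difference of Il1r2 exceeded that of Il1r1 by 2.77 on the log2 scale (SD 0.34), and the value was above every sham-operated mouse in 4 of 4 MI mice. The exact two-sided permutation p was 0.0286, the smallest possible, and 0.0571 after adjustment over the 4 pairs, which did not pass.

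Il1rap, the accessory chain shared by the receptors of interleukin-1 and interleukin-33, has 2 probes. The retained probe, on transcript NM_134103, was at 4.93, 4.96, 4.81 and 4.90 in sham-operated mice and at 5.84, 6.09, 6.05 and 6.35 in MI mice. Both groups were tight and the gap between them was 0.87, although the signal was close to background and 1 sham array was not well above it. The fold change was 2.26 (95% confidence interval 1.70 to 3.02, limma adjusted p = 0.00024). This call was lost with the new vsn fit, with normexp, and in the arrays of row 1 of the slide alone (2 MI and 2 sham-operated mice), where the difference was 1.01 (adjusted p = 0.317). The probe on transcript NM_008364 was well above background in MI mice 3 and 4 only, at 6.28 and 5.17, and was not retained.

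Il1rl1, the receptor of interleukin-33, was at 7.28, 7.01, 7.38 and 6.47 in sham-operated mice and at 6.70, 6.94, 6.99 and 7.08 in MI mice. The MI mice lay within the range of the sham-operated mice. The difference was -0.11 (SE 0.22), a fold change of 0.929 with a 95% confidence interval from 0.678 to 1.27 (limma adjusted p = 0.847). The retained probe is on transcript NM_001025602, and the other 2 probes, a second one on that transcript and one on NM_010743, were not well above background on any array. Which of these probes reads the soluble form of ST2 was not examined, so that the fold change is that of the retained probe alone. Within arrays, the difference of Il1rl1 minus that of its ligand Il33 was -0.74 (SD 0.42), with 3 of 4 MI mice below every sham-operated mouse, which did not pass (exact two-sided permutation p = 0.0857, 0.114 after adjustment over the 4 pairs).

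Il18rap, the accessory chain of the interleukin-18 receptor, was at 6.57, 7.23, 7.76 and 6.36 in MI mice, where all 4 arrays were well above background. In sham-operated mice it was at 4.51, 4.35, 3.00 and 3.86, and none of these arrays was well above background. The signal was at least 6.85-fold higher in MI mice, taking for each sham array the higher of the dimmest signal well above background and the signal of the probe itself (limma adjusted p = 5.7e-08, measured means 6.98 and 3.93). The bound and the call rest on dim signals: the new vsn fit gave a difference of 0.62, and settings without an additive constant gave 4.63 to 4.81. Within arrays, the difference of Il18rap exceeded that of its ligand Il18 by at least 2.37 with the sham arrays at this bound, with 4 of 4 MI mice above every sham-operated mouse (exact two-sided permutation p = 0.0286). With the sham signals as recorded, which are not well above background, the value was 2.64. Its exact two-sided permutation p was 0.0286, and 0.0571 after adjustment over the 4 pairs, which did not pass. Il18rap met the detection rule through its MI arrays alone, so that the rule favored this separation. No conclusion is drawn from these p-values.

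**Figure D2:**
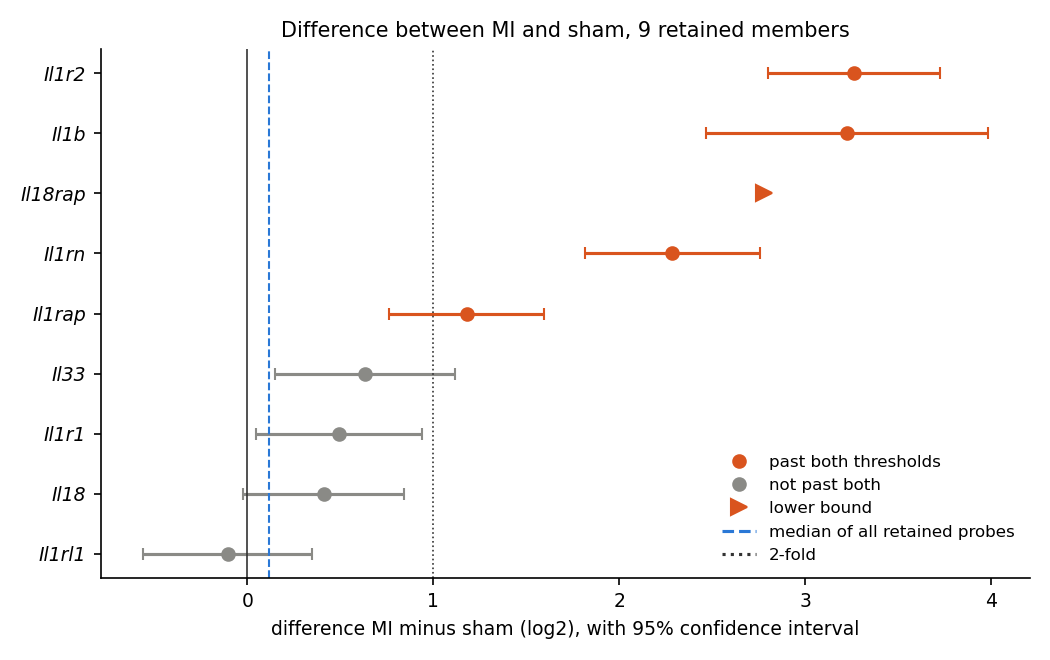
Difference between MI and sham-operated mice on the log2 scale (x axis) for the 9 retained genes, with the 95% confidence interval of limma over 4 and 4 mice. The triangle gives the lower bound for Il18rap, whose sham arrays were not well above background. The intervals of Il1r2, Il1b and Il1rn lie wholly above 1, that of Il1rap spans 1, and those of Il33, Il1r1, Il18 and Il1rl1 reach below 0.2.

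Among the MI mice, MI mouse 1 was lowest for 4 of the 5 called genes, Il1b, Il1rn, Il1rap and Il1r2, and MI mouse 4 was lowest for Il18rap. The highest MI mouse was mouse 2 for Il1b and Il1r2, mouse 4 for Il1rn and Il1rap, and mouse 3 for Il18rap. The spread among MI mice was widest for Il1b, 2.57 from the lowest to the highest, and narrowest among the called genes for Il1rap, 0.52.

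The receptor genes lie side by side on chromosome 1 in the order Il1r2, Il1r1, Il1rl2, Il1rl1, Il18r1 and Il18rap, with no other protein-coding gene between them. The 2 genes at the ends of this row, Il1r2 and Il18rap, rose. The 4 genes between them were not called: Il1r1 differed by 0.49, Il1rl1 by -0.11 and Il18r1 by 0.87 (limma adjusted p = 0.0094), and Il1rl2, the interleukin-36 receptor, was not retained. The difference of Il18r1, which binds interleukin-18 directly, corresponds to a fold change of 1.83, below the threshold of 2.

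**Figure D3:**
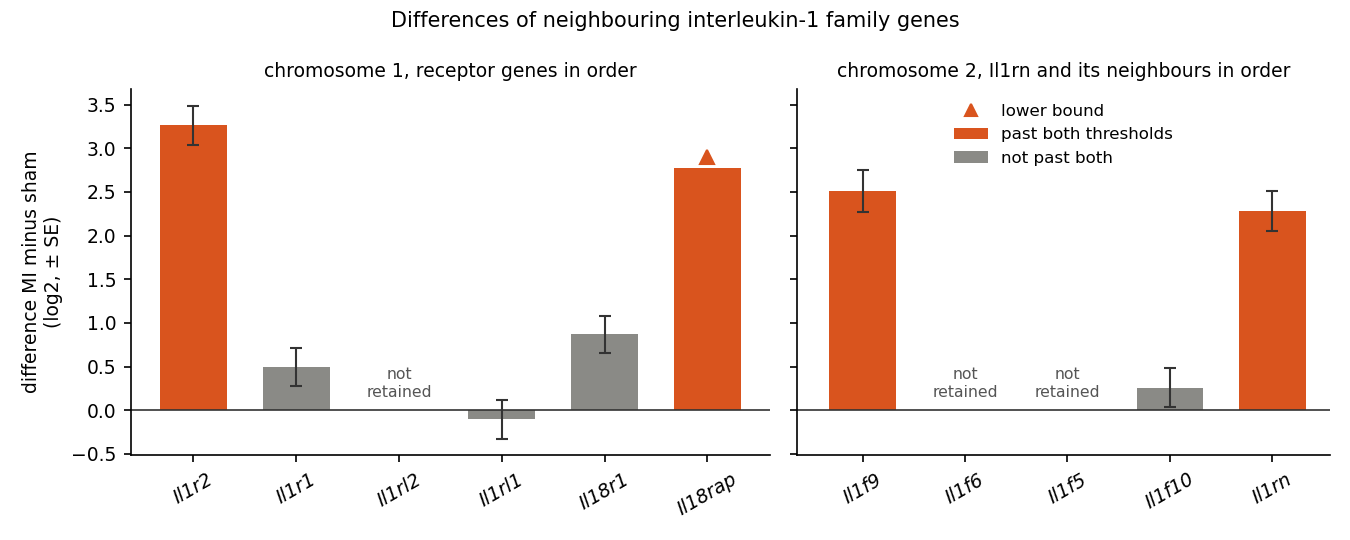
Difference between MI and sham-operated mice (log2, ± SE from limma, 4 and 4 mice) for the receptor genes of chromosome 1 and for Il1rn and its neighbors on chromosome 2, each in gene order and not to distance. Orange bars passed both thresholds, and the bar under the triangle is a lower bound. The bars at both ends of each row are the tallest.

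Il1rn lies at the end of a second row on chromosome 2, after Il1f9 (Il36g), Il1f6 (Il36a), Il1f5 (Il36rn) and Il1f10. Il1f9, which encodes interleukin-36 gamma, a ligand first known from skin, rose by 2.51 on the log2 scale (SE 0.24, 5.70-fold, limma adjusted p = 3.2e-08). It was well above background on 4 MI arrays and 1 sham array, and so met the detection rule only with the help of the MI arrays. Its mean was 4.19 in sham-operated mice, so that the fold change rests on dim signals. Il1f10 differed by 0.26 (limma adjusted p = 0.583), and Il1f6 and Il1f5 were not retained. Of the other 11 family genes examined, 5 were retained and only Il1f9 was called, beside the 3.07% of all retained probes called higher. Il18bp, the secreted inhibitor of interleukin-18, differed by 0.63 (limma adjusted p = 0.107) and Sigirr, an inhibitory receptor of the family, by 0.06 (limma adjusted p = 0.920). The median over these 5 retained genes was 0.63, beside 0.12 over all retained probes. Il1rapl1, Il1rapl2 and Il1f8 (Il36b) were not retained.

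The genes that process and release these cytokines were next compared. Of 13 such genes, 12 were retained and 0 were called, and their median difference was 0.11. The following 4 are named for their role, after their values were seen. Casp1, which cleaves the precursor of interleukin-1 beta, differed by 0.08, Pycard, the inflammasome adaptor, by 0.04, and Nlrp3, the inflammasome sensor, by 0.19. Casp4, the caspase of the noncanonical inflammasome, had the largest difference of the list, 0.91 (limma adjusted p = 0.0088), below the fold threshold. Only RNA was measured, so that cleavage and secretion are not seen in these data.

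Of the 27 genes of receptor signaling, all were retained, 2 were called higher, beside the 3.07% of all retained probes called higher, and 0 lower. The median difference was 0.32. Map2k3, a kinase upstream of p38, rose by 1.18 (limma adjusted p = 0.0023), and Relb, a subunit of NF-kB, rose by 1.16 (limma adjusted p = 0.00063). Outside the rule for named genes, and chosen after the values were seen, Irak3, an inhibitor of the pathway, differed by 0.97 (limma adjusted p = 0.0099) and the adaptor Myd88 by 0.94 (limma adjusted p = 0.0090). Map2k6, the close relative of Map2k3, differed by -0.98 (limma adjusted p = 0.0044), just short of a fold change of 2 in the other direction.

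Of 24 genes that interleukin-1 is known to induce, all were retained and 18 rose, beside the 3.07% of all retained probes called higher, and 0 fell. The median difference was 2.14. The neutrophil chemokine Cxcl2 rose by 3.68 (12.8-fold, limma adjusted p = 8.4e-10) and the cytokine Il6 by 3.35 (10.2-fold, limma adjusted p = 2.3e-07). Csf2, the granulocyte-macrophage growth factor, was at least 6.57-fold higher (limma adjusted p = 2.3e-08), since none of its sham arrays was well above background. It met the detection rule through its MI arrays alone. Outside the rule for named genes, Csf3 and Sele, which rose, each had 1 sham array well above background. They met the detection rule only with the help of the MI arrays. The 6 that did not pass were Ptges at -0.11, Mmp3 at 0.02, Nos2 at 0.38, Vcam1 at 0.62, Lcn2 at 0.64 and Zc3h12a at 0.90. The summed signal of the neutrophil markers was also higher in every MI mouse than in every sham-operated mouse, and its part in these differences was not tested. Many of these genes are also induced by other cytokines, and this list was chosen with results of these arrays already known.

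**Figure D4:**
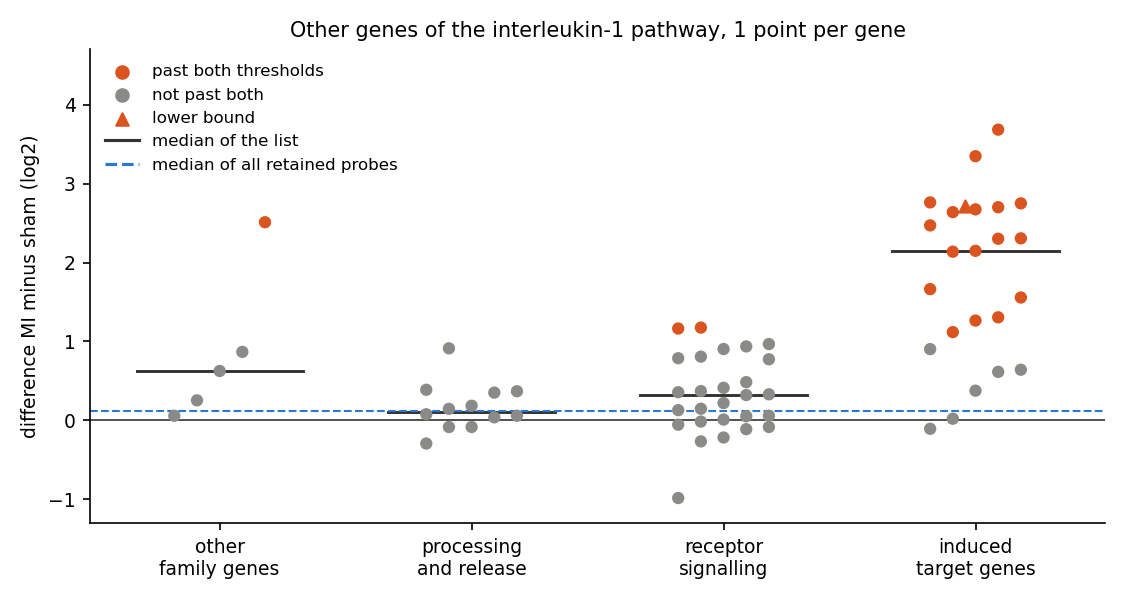
Difference between MI and sham-operated mice (log2, y axis) for the retained genes of 4 lists of the interleukin-1 pathway, 1 point per gene, from limma over 4 and 4 mice. Orange points passed both thresholds, the triangle is the lower bound of Csf2, and horizontal bars give list medians. The induced target genes have their median at 2.14 and the processing genes at 0.11, close to the median of 0.12 over all retained probes.

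For each retained gene, the 3 most similar patterns were sought among 15085 genes, by the root mean square difference of log2 signals, each centred on its own mean over the 8 arrays. These are descriptions over 8 arrays. For Il1b they were Ptgs2 (cyclooxygenase 2, 0.44), Ch25h (0.45) and the chemokine Ccl3 (0.50). For Il1r2 they were the growth factor Ereg (0.23), the formyl peptide receptor Fpr2 (0.26) and AA467197 (0.28).

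Il1rn was most like Samsn1 (0.14), the lectin receptor Clec4e (0.20) and Bcl2a1d (0.21), and Il1rap was most like the kinase Pik3cg (0.11), Cd101 (0.13) and Gsap (0.15). Il18rap was most like Stfa1 (0.23), Csf2 (0.23) and the arginase Arg2 (0.30). None of the sham arrays of Il18rap or Csf2 was well above background, so that on those 4 arrays this likeness compares background signals. Il1rn was well above background on 1 sham array and Il1rap on 3, so that on their other sham arrays the likeness also rests on background signals. Stfa1 and Bcl2a1d have near-identical copies that can share a probe, so that their identity is uncertain. Among the genes that were not called, Il18 was most like the protease Ctss (0.08), Rab27b (0.09) and S100a4 (0.11), and Il1r1 was most like Dpysl3 (0.08), Ssr1 (0.08) and Sec61a1 (0.09). Il33 was most like Sh3bgrl2, Fcrlb and Creb3l2, at 0.14 to 0.16, and Il1rl1 most like Vmn1r65, Sox12 and Samhd1, at 0.16 to 0.17.

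Markers of leukocytes were measured on the same arrays. Of 12 neutrophil markers, 11 were retained and 8 rose, with a median difference of 2.77, beside 3.07% of all retained probes called higher, the share against which each of the marker counts here stands. Their summed signal was 15.94 to 16.33 on the log2 scale in sham-operated mice and 17.91, 18.30, 18.31 and 17.69 in MI mice 1 to 4, and sham mouse 3 had the highest value among sham-operated mice. Such a sum adds the unlogged signals of a list, so that its brightest probes weigh most. By group mean, the brightest neutrophil probe was S100a9 in MI mice and Csf3r in sham-operated mice. In the lists that follow, it was Itgam for monocytes and macrophages, Cd4 for T and NK cells, and Hdc for mast cells. Retnlg rose by 4.24 and Cxcr2, the receptor of the neutrophil chemokines, by 3.31, whereas Csf3r differed by 0.08. No probe was paired with Ly6g. Ngp was at least 5.3-fold higher, since none of its sham arrays was well above background. It met the detection rule through its MI arrays alone. The median of 2.77 is the difference of Ngp with its sham signals as recorded.

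Of 12 monocyte and macrophage markers, 10 were retained and 2 rose, Cd14 by 2.25 and Ccr2 by 1.15, and their summed signal was 15.01 to 15.95 in sham-operated and 15.27 to 15.86 in MI mice. Of 12 markers of T and NK cells, 6 were retained and 0 were called, and the summed signal was 12.29 to 13.31 in sham-operated and 12.35 to 13.17 in MI mice. The defining markers Cd3g, Cd8a, Ncr1 and Klrb1c were not retained. Of 8 mast cell markers, 7 were retained and 2 rose, Hdc by 1.96 and Kit by 1.93, and the other 5 (Cpa3, Mcpt4, Tpsb2, Cma1 and Fcer1a) were not called and had differences of -0.47 to -0.17. The median over the 7 was -0.19, and the summed signal was 10.30 to 11.35 in sham-operated and 11.54 to 12.49 in MI mice. Like the 5 called genes, the neutrophil, mast cell and smooth muscle sums were higher in every MI mouse than in every sham-operated mouse. Among the MI mice, the neutrophil sum was lowest in mouse 4, which was lowest for Il18rap but highest for Il1rn and Il1rap. This sum was next lowest in mouse 1, which was lowest for Il1b, Il1rn, Il1rap and Il1r2. It was highest in mouse 3 (18.31) and mouse 2 (18.30). Mouse 3 was highest for Il18rap, and mouse 2 for Il1b and Il1r2. The part of these sums in the differences of the called genes was not tested. Of 6 B cell markers, 5 were retained and 0 were called. The fibroblast markers (8 retained, median -0.41) and endothelial markers (8 retained, median 0.20) had 0 calls, and among 5 smooth muscle markers only Acta2 was called. The smooth muscle sum was 14.55 to 15.05 in sham-operated and 15.06 to 15.75 in MI mice. By group mean, its brightest probe was Acta2 in MI mice and Smtn in sham-operated mice.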

How the data were processed

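RNA from the ventricles of 8 mice was labeled with Cy3 and hybridized to 1 array per mouse. The labels of the samples gave the groups. A single slide held the 8 arrays, with 2 mice of each group in each of its 2 rows, and it was read in 1 scan. Per the file headers, the deposited intensity of a spot is the processed signal of Feature Extraction 11.0.1.1, from which the background had been subtracted. The authors normalized these signals with limma and vsn on spike-in probes and deposited log2 values for spots well above background.

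The scale and the additive constant of each array were recovered by setting the deposited log2 values against the scanner intensity (largest misfit 5.0e-09), and were applied to every spot, so that dim spots also have a value. The constants were 4.20 to 17.9 in scaled units. An earlier treatment of these arrays fitted vsn anew and obtained larger constants, which hold back dim probes; that fit is an alternative here. Control spots and spots flagged as outliers were left out, the spots of a probe were averaged, and probes with fewer than 4 arrays well above background were removed, which kept 34038 of 55681 probes. Gene symbols and gene order came from the RefSeq annotation of GRCm38 through accessions. The array was designed on mm9, and no probe coordinates are given. For a gene with several retained probes the brightest was used.

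The comparison of the 2 groups used limma 3.58.1 (R 4.3.3) with the group as the only term, and p-values were adjusted over all retained probes (Benjamini-Hochberg). A probe not well above background on any array of a group received a bound in place of a fold change. Single differences and 4 within-array pairs were tested by exact two-sided permutation of the 8 mice. Other steps used Python 3.11.15, numpy 2.4.6, scipy 1.17.1, pandas 2.3.3 and matplotlib 3.10.9. All 10 family genes are named, with the called genes of the 4 largest folds in each direction from each of 4 pathway lists, every other family gene, and the 3 most similar patterns; 1 gene that this rule names is not reported here. The members and all lists were chosen with earlier results of these arrays known.

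Alternatives were scaling to the 75th percentile, a shift by the spike-in signals, the new vsn fit, quantile normalization, normexp with an offset of 50, the deposited values, no detection filter, detection required on every array, significance analysis of microarrays, blocks for replicate number and row, each row alone, the mean over all probes of a gene, and each mouse left out in turn. Precision is limited by the number of arrays.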

Additional observations from a re-analysis of the deposited data

Results flagged for a closer look

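In 18 groups of 4 values, 2 held a mouse that stood apart from the others by Dixon's 95% criterion, and chance gives about 1 such group in 20. For Il1b, sham mouse 3 was at 8.70 and the other sham-operated mice were at 7.30 to 7.46. Without this mouse the difference between MI and sham-operated mice was 3.55 in place of 3.22. For Il18, MI mouse 4 was at 7.63 and the other MI mice were at 7.03 to 7.11.

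A signal was also seen in a probe that no comparison used. The Il1rap probe on transcript NM_008364 was well above background on 2 MI arrays and on 0 sham arrays, at 6.28 and 5.17 in MI mice 3 and 4.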

How the results depend on the processing

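The new vsn fit called 331 probes in place of 1184, 2 of the 10 family genes in place of 5 and 13 other pathway genes in place of 21, and the normexp background correction called 522 probes and 3 family genes. The dim genes lost their call there: Il1rn was at 0.50 and 0.91, Il1rap at 0.22 and 0.29, and Il18rap at 0.62 with the new vsn fit. The larger constant and offset of these settings compress dim signals by construction. Within arrays, Il1b then exceeded Il1rn by 1.93 and 1.88 (exact permutation p = 0.0286 each), whereas it was 0.08 to 0.14 with the 75th percentile, the spike-in shift or quantile normalization (exact permutation p of 0.743 or more), and Il18rap exceeded Il18 by 0.45 with the new vsn fit (exact permutation p = 0.0857). Requiring detection on all arrays left 2 called family genes, since Il1rn, Il1rap and Il18rap were then not tested. It left 17 other pathway genes called in place of 21. The deposited values hold no sham value for Il18rap. Row 1 alone called 523 probes, gave 1.01 for Il1rap, and had Il1r2 above Il1r1 by 3.17, against 2.37 in row 2 alone, where Il1rl1 turned to 0.11. Neither row alone, with 2 against 2 mice, can reach an exact p under 0.333. With the 75th percentile, the spike-in shift or quantile normalization, which add no constant, Il1rn was at 3.04 to 3.24, Il18rap at 4.63 to 4.81 and Il1rap at 1.42 to 1.61, and Il18rap exceeded Il18 by 4.31 to 4.56. The bound for that pair, chosen after seeing the data, was 2.37.

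With each mouse left out in turn, 1046 to 1461 probes, 5 family genes and 21 to 24 other pathway genes were called. The pair differences were then 0.60 to 1.27 for Il1b and Il1rn, 2.56 to 2.87 for Il1r2 and Il1r1, -0.93 to -0.59 for Il1rl1 and Il33, and 2.28 to 2.99 for Il18rap and Il18. Il1rl1 ranged from -0.29 to 0.01, turning sign without sham mouse 3. Il1b and Il1r2 were called in each of their 22 alternatives, at 2.43 to 3.75 and 2.73 to 3.43.

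Mice with the same replicate number did not all deviate together (correlations of 0.24, 0.29, 0.14 and 0.01). Of the 8 arrays, 5 deviated most like the array of the other group with their own number. The numbers were not taken as pairs in the main comparison. With the number as a replicate block, 1028 probes were called higher and 127 lower, 5 family genes and 21 other pathway genes were called, and no call of a family gene changed. Scaling to the 75th percentile moved the median difference of all retained probes from 0.12 to -0.02, quantile normalization to -0.04 and normexp to -0.12, and the family genes called under the first 2 were again 5.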
